A study of Mus musculus with 12 samples.

Results

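The genes described here encode the proteins of the cytosolic ribosome. They were taken as the probe sets whose only annotated gene symbol was a large-subunit (Rpl) or small-subunit (Rps) ribosomal protein name, or Rplp0, Rplp2 or Rpsa, with 1 probe set kept for each gene, the one with the highest mean signal. The rule gave 46 genes on 100 probe sets, of 18193 genes named alone on a probe set of this array, and it used no difference between groups. A further 28 ribosomal protein genes were named only on probe sets that list several symbols, and they were not analysed here. Of the 46 genes, 43 were tested, since their signal exceeded the median of the array on 2 or more arrays: 22 of the large subunit, 19 of the small subunit and the 2 paralogues Rpl39l and Rps27l. Of these, 42 did so on all 12 arrays. The sets of 15 tested genes, among them Rpl35, Rpl13a, Rpl37a, Rpl38 and Rps9, have identifiers ending in _x_at or _s_at, which mark probes that may match several transcripts. Whether a set also bound related genes or pseudogenes could not be checked. Rps16 and the tissue-restricted paralogues Rpl3l and Rps4l had mean signals of 1.55, 3.08 and 2.26 on their probe sets and were not tested.

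RNA of mouse bone marrow macrophages was measured on 12 one-colour Affymetrix arrays. IRAK4 is a kinase that carries the signal of Toll-like receptors, which sense lipopolysaccharide (LPS), from the adaptor MyD88. The macrophages came from animals with a kinase-dead IRAK4 (KD) or from wild-type (WT) animals. Per the labels, all cultures were kept in medium with fetal calf serum and medium conditioned by L-929 cells. The 6 groups were KD macrophages without stimulus for 4 h, KD macrophages with LPS at 1 µg/ml for 1 h, KD macrophages with LPS for 4 h, and WT macrophages under the same 3 conditions, with 2 biological replicates each. The unstimulated cells were kept for 4 h, so the comparisons at 1 h differ both in LPS and in hours of culture. The labels give neither the way the kinase-dead animals were made nor whether replicates came from separate animals, so a p-value here is set against the scatter of 2 arrays a group, which may be technical. A total of 0 probe sets named Irak4, so the mutated gene could not be read.

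A ribosome is built from a small subunit, which holds the mRNA and reads its codons, and a large subunit, which joins the amino acids. Its proteins are made in matched amounts, and their mRNAs are among the most abundant in growing cells. Most of these mRNAs begin with a run of pyrimidines behind a first cytosine, the 5′ terminal oligopyrimidine tract, through which growth signals acting on the kinase mTOR and the binding protein LARP1 control their translation.

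The starts of 6 genes to which the comparisons below return are shown to let the tract be seen, each from 10 bases before to 20 bases from the annotated transcription start, 5′ to 3′ on the transcribed strand. They are RefSeq sequences on GRCm38.p6, and capitals mark a cytosine followed by at least 5 pyrimidines, the longest such run in the window. Where a gene had several annotated starts, the one with the longest run is shown. In Rpl6 the run, 6 bases long from position -9, ends before the annotated start and so lies outside that transcript. The windows lie at chr7:141447641-141447670 on the plus strand for Rplp2, chr2:39005112-39005141 on the minus strand for Rpl35, chr7:3704031-3704060 on the plus strand for Rps9, chr5:121204491-121204520 on the plus strand for Rpl6, chr7:99483690-99483719 on the minus strand for Rps3 and chr9:64173377-64173406 on the plus strand for Rpl4.
Rplp2: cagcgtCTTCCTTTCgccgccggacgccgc
Rpl35: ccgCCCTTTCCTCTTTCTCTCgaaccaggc
Rps9: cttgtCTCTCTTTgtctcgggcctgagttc
Rpl6: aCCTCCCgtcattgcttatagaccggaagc
Rps3: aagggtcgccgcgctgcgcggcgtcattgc
Rpl4: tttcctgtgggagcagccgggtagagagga
Such a run was searched on the transcribed strand only, and a gene was counted if any of its annotated starts had one. The run was found in 24 of the 40 genes with a RefSeq promoter (60.0%), against 6735 of 27025 genes in all (24.9%). It stood in 14 of the 22 genes that were higher in unstimulated KD than in unstimulated WT cells (63.6%) and in 9 of the 15 with a RefSeq promoter that were tested and not called there (60.0%). The match describes letters in a window around an annotated start and says nothing of the start used in these cells.

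The labels and the state of the arrays were checked once. On each array 9 to 11 of 11 macrophage markers exceeded the array median, and all 10 genes of an LPS response list, Tnf and Il6 among them, were higher after LPS in both strains and at both times. Markers of stromal cells, such as collagens, were also measured (8 of 9 tested), while those of B, T, erythroid, neutrophil and mast cells had summed signals of at most 124 on any array. Spearman correlations between the 2 arrays of a group ran over all probe sets, with values of 0.879 to 0.913. The deposited signals had the same trimmed mean, 150.001, on all arrays, but their medians were 24.2 to 26.9 on KD arrays and 18.9 to 22 on WT arrays. Centring each array on its median therefore moved the median change between the strains over every tested probe set to -0.16 (log2) in unstimulated cells, against 0.03 as deposited, and the directions of the whole family below are given under the deposited scaling, median centring and quantile normalization. The log2 ratio of the 3′ to the 5′ control probe set, a reading of RNA integrity and amplification length, was highest on KD unstimulated array 1 (1.35 for Gapdh and 3.04 for Actb) and lowest on WT unstimulated array 1 (0.81 and 2.22).

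Most ribosomal protein mRNAs gave strong signals on all arrays. Mean signals of the tested genes ran up to 6426, with a median of 3647, and 35 of 43 exceeded 1000. The other end held 7 genes under 500: Rpl12, Rpl14, Rpl37, Rpl39, Rpl39l, Rps6 and Rps27. Signals of different probe sets are not comparable as amounts of mRNA, and a low signal here may belong to the probe set. The spread of log2 level over the 12 arrays was smallest for Rplp0 (SD 0.10), the stalk base of the large subunit, Rpl8 (0.10) and Rps20 (0.11). It was largest for Rpl39 (0.91), Rps27 (0.65) and Rpl37 (0.45), all of them dim sets.

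The family moved largely together from array to array. After the mean of each gene over the 12 arrays was taken away, the median log2 deviation of the 43 genes was 0.24 and 0.15 in unstimulated KD cells, 0.06 and 0.11 in KD cells after 1 h of LPS and -0.05 and 0.01 after 4 h. In WT cells it was -0.15 and -0.11 without stimulus, -0.09 and 0.02 after 1 h and -0.03 and -0.11 after 4 h. Both unstimulated KD arrays thus lay above the other KD arrays, while the unstimulated WT arrays were the lowest 2 of their strain by a narrow margin over WT LPS 4 h array 2. In the deposited scaling, 33 of the 43 genes had their highest group mean in unstimulated KD cells and 28 their lowest in unstimulated WT cells. The same counts were not made over all tested probe sets, so these describe the family without a share to set them against. The median Pearson correlation over all 903 gene pairs was 0.65 across the 12 arrays. All genes on an array carry its scaling and RNA quality, so the value is given as a description. Rpl39l stood apart, with a median correlation of -0.77 with the other genes, and Rpl4 lay at the other end with 0.82.

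**Figure D1:**
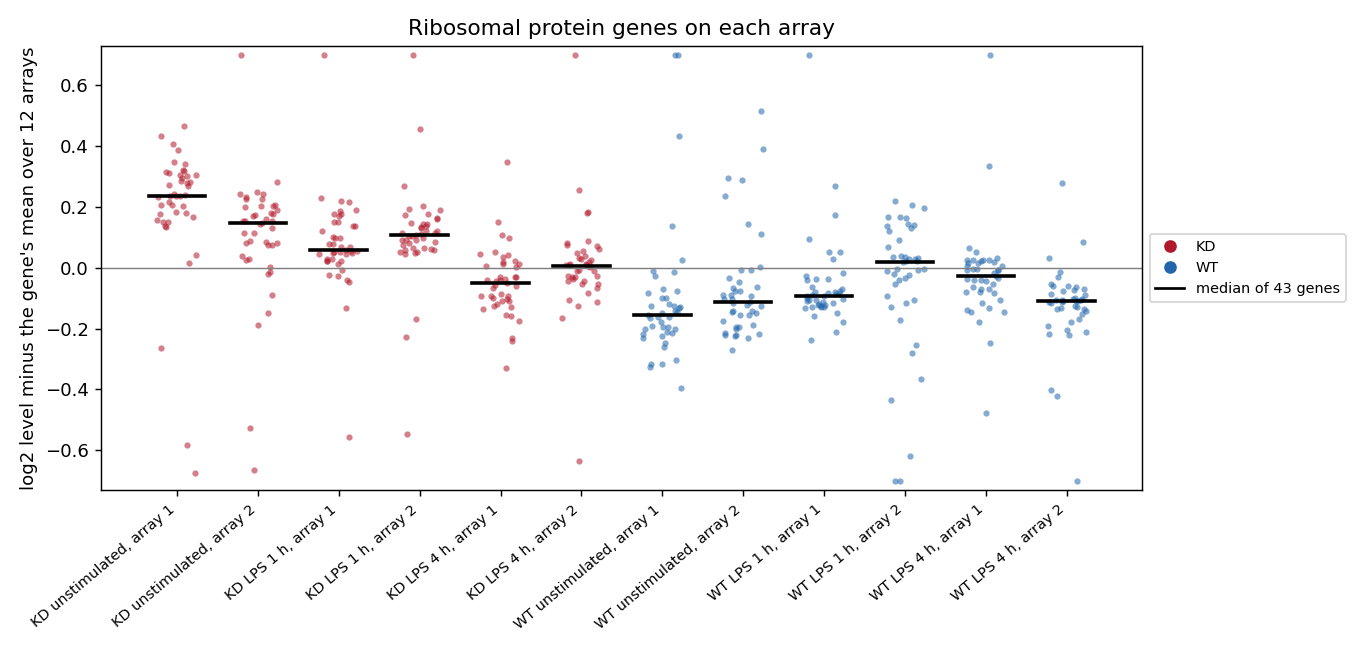
Log2 level of each of the 43 tested ribosomal protein genes minus its mean over the 12 arrays (points), by array, with the median per array (black line), KD in red and WT in blue. The 2 unstimulated KD arrays have the highest medians, 0.24 and 0.15, and WT unstimulated array 1 has the lowest, -0.15, in the deposited scaling. A total of 11 points beyond 0.7 in size are drawn at the edge.

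Without stimulus, 22 of the 43 ribosomal protein genes were higher in KD than in WT macrophages, 1, Rpl39l, was lower and 20 were not called, at an adjusted p threshold of 0.05 by limma. Over all 27931 tested probe sets, 2.37% were higher and 2.87% lower (5.25% in either direction), and among 2569 other probe sets with a mean signal of at least 1000, 13.7% were higher and 7.67% lower. The median log2 change of the family was 0.31 (0.03 over all tested probe sets). It was 0.14 under quantile normalization (-0.003 over all tested probe sets), where 14 genes were called higher and 1 lower. After median centring it was 0.12 (-0.16 over all tested probe sets), and 4 were called higher and 1 lower. The shares above are those of the deposited scaling, and none is given for the other 2. As deposited, all 19 tested small-subunit genes had a log2 change above 0, of which 10 were called. So did 18 of 22 large-subunit genes, of which 11 were called, and 52.6% of all tested probe sets.

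Among the large-subunit genes, Rpl35, whose protein sits at the mouth of the tunnel through which new chains leave, had signals of 8396 and 6949.5 in unstimulated KD cells, against 4993 and 5330.2 in unstimulated WT cells. Rplp2, a stalk protein that recruits elongation factors, had 6096 and 5748 in unstimulated KD cells, against 4181 and 4185 in unstimulated WT cells. In both genes the lower KD array lay above the higher WT array. The log2 changes were 0.57 ± 0.09 for Rpl35 (SE, 1.48-fold, adjusted p = 0.00144, limma) and 0.50 ± 0.08 for Rplp2 (1.41-fold, adjusted p = 0.000912). Both calls held in each of the 12 fits that left out 1 array.

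Rpl4, whose protein lines the exit tunnel, had signals of 7203 and 6454 in unstimulated KD cells, against 4685 and 5022 in unstimulated WT cells. Rpl6, another large-subunit protein, had 5222 and 4645 in unstimulated KD cells, against 3514 and 3635 in unstimulated WT cells. Neither pair of groups overlapped. Their log2 changes were 0.49 ± 0.09 and 0.46 ± 0.08 (limma adjusted p = 0.00367 and 0.0025), and those of Rpl19 and Rpl37a were 0.48 ± 0.12 and 0.45 ± 0.08 (adjusted p = 0.0188 and 0.00331). Rpl13a, which in human monocytes leaves the ribosome to silence inflammatory mRNAs, was higher by 0.40 ± 0.07 (limma adjusted p = 0.00294). Rpl38, whose loss in mice disturbs the axial skeleton, was higher by 0.27 ± 0.08 (adjusted p = 0.0477).

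Among the small-subunit genes, Rpsa, a protein also known as the laminin receptor precursor, had signals of 4272 and 3282 in unstimulated KD cells, against 2579.5 and 2704 in unstimulated WT cells. Rps3, which lies at the entry of the mRNA channel, had 5455 and 4932 in unstimulated KD cells, against 3793 and 3889.7 in unstimulated WT cells. Rps9, a protein near the decoding site, had 2929.7 and 3095 in unstimulated KD cells, against 2189.8 and 2175 in unstimulated WT cells. In all 3 genes both KD arrays exceeded both WT arrays, and the 2 KD arrays of Rpsa lay further apart than those of the others. The log2 changes were 0.50 ± 0.10, 0.43 ± 0.08 and 0.46 ± 0.09 (SE, limma adjusted p = 0.00735, 0.00362 and 0.00458). Rps26, at the mRNA exit, and Rps25 changed by 0.47 ± 0.09 and 0.46 ± 0.11 (adjusted p = 0.0031 and 0.0181).

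Other genes with known roles did not pass the test on their chosen probe sets. Rplp0 had a log2 change of 0.25 (95% interval 0.04 to 0.45), Rpl11, which binds the p53 regulator Mdm2, 0.24 (0.03 to 0.45), Rpl22, which is needed for T cell development in mice, 0.28 (0.09 to 0.46), and the X-linked Rps4x 0.26 (0.09 to 0.42). Rps6, the substrate of the S6 kinases, was read by a dim probe set with signals of 175 and 122 in unstimulated KD cells, against 138 and 139.9 in unstimulated WT cells. The groups overlapped, and the change was 0.07 (interval -0.38 to 0.52). Rps27, a dim set too, had 0.08 (interval -1.06 to 1.22).

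The paralogues Rpl39l and Rps27l were called in opposite directions on the chosen probe sets. Rpl39l, a paralogue of Rpl39 that is abundant in testis, had signals of 189 and 178 in unstimulated KD cells, against 387 and 409.8 in unstimulated WT cells, and the groups did not overlap. Its log2 change was -1.10 ± 0.17 (0.467-fold, limma adjusted p = 0.000892), and the call held in each of the 12 fits that left out 1 array. Rpl39, on a dim set, had a change of -0.34 (interval -1.56 to 0.88), and this interval covers the change of Rpl39l. Rps27l, a target of p53 in human cells, was higher by 0.34 ± 0.09 (limma adjusted p = 0.0358), a change inside the interval of Rps27. Other sets of Rps27l, with mean signals of 2139 and 1479, had 0.08 and -0.07 (limma adjusted p = 0.701 and 0.782) and were not called.

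**Figure D2:**
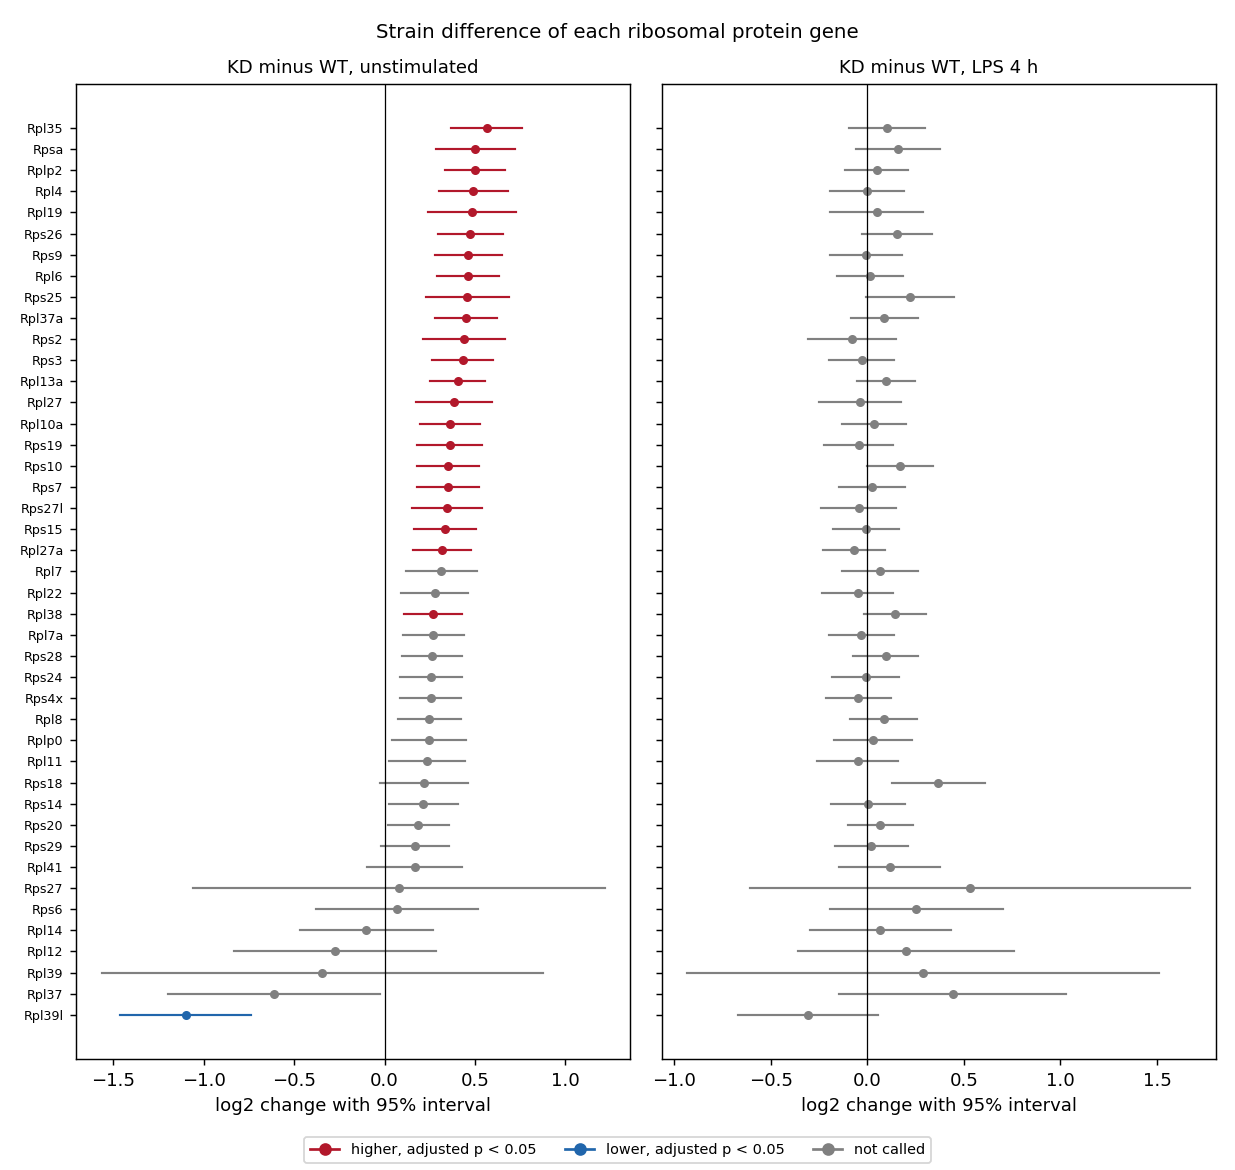
Log2 change, KD minus WT, of each tested ribosomal protein gene with its 95% interval, in unstimulated cells (left) and after 4 h of LPS (right), in the same order of genes. In unstimulated cells 22 genes are called higher (red) and Rpl39l lower (blue), and after 4 h of LPS none is called. The values are in the deposited scaling. The median over the genes at 4 h is 0.05 there and -0.22 after median centring, where all tested probe sets have -0.18.

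The strain difference leaned on how the spread was modelled and on single arrays. With a variance prior that does not depend on signal, 0 of the 43 genes were called, and without WT unstimulated array 1 the count was 3, without KD unstimulated array 1 it was 15 and without WT unstimulated array 2 it was 15. Probe sets of 1 gene also disagreed in places. A dimmer set of Rps9, with a mean signal of 764, was lower by 0.77 in unstimulated KD cells (limma adjusted p = 0.02), while that of Rps3 had -0.40 (adjusted p = 0.115). A second bright set of Rps18 was higher by 0.57 (adjusted p = 0.00101), whereas the chosen one had 0.22 (adjusted p = 0.355). In Rpl22 a set with a mean signal of 3227 was called higher (0.33, limma adjusted p = 0.0321), while the chosen one was not. Rpl13a was called on its chosen set, and its other sets had 0.12, 0.21 and 0.47 (limma adjusted p = 0.618, 0.272 and 0.028). Of the Rpl7 sets, 1 with a mean signal of 1012 had -0.72 and another had 0.34 (limma adjusted p = 0.0257 and 0.0134), while the chosen one was not called. Over all 92 tested probe sets of the family, 40 were higher and 3 lower, against 2.37% and 2.87% of all tested probe sets. Several sets of 1 gene are counted separately there.

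Markers of other cells differed between the same arrays. The summed signal of the 9 stromal markers was 1834 and 1512 in unstimulated KD cells, against 3429 and 3315 in unstimulated WT cells, and 5 of the 8 tested were lower (Postn, Pdgfrb, Col1a2, Col1a1 and Col3a1), with a median log2 change of -0.95 over the list. Lum had group means of 5.15 in unstimulated KD cells and 8.3 in unstimulated WT cells and was under the filter, and the other 8 had group means of 39.2 or more in these groups. The summed signal of 11 macrophage markers was 26404 and 22099.5 in unstimulated KD cells, against 18666 and 19250.5 in unstimulated WT cells, with Lyz2, Csf1r and Cd14 higher and Mrc1 lower. In such bulk RNA, fewer cells of a type and less RNA per cell cannot be told apart, and the part of these markers in the ribosomal protein difference was not tested.

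In KD macrophages several ribosomal protein mRNAs were lower after 4 h of LPS. Against unstimulated KD cells, 10 of 43 genes were lower (Rplp2, Rps19, Rpl35, Rps3, Rpl4, Rpl37a, Rps9, Rpl13a, Rpl27a and Rpl6) and Rpl39l was higher. Of all tested probe sets 4.7% were lower and 5.3% higher (10% in either direction), and of the other probe sets with a mean signal of at least 1000, 15.1% were lower. The family's median log2 change was -0.21 (all tested probe sets -0.05), and it was -0.10 under quantile normalization and -0.16 after median centring. Rplp2 had signals of 4553 and 4690.3 in KD cells after 4 h of LPS, against 6096 and 5748 in unstimulated KD cells, with no overlap, and its change was -0.36 ± 0.08 (limma adjusted p = 0.00512). Rps19, whose loss underlies Diamond-Blackfan anaemia in humans, fell by 0.33 on the log2 scale (adjusted p = 0.018).

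The changes of the other 8 lower genes lay between -0.32 for Rpl35 and -0.28 for Rpl6. Rpl39l had signals of 295 and 276.5 in KD cells after 4 h of LPS, against 189 and 178 in unstimulated KD cells, and its change was 0.63 ± 0.17 (limma adjusted p = 0.0245). The count depended on single arrays, being 0 without KD LPS 4 h array 1, 1 without KD unstimulated array 1, 4 without KD LPS 4 h array 2 and 14 without KD unstimulated array 2. It was also 0 with a variance prior that does not depend on signal. Beside these changes, 3 of the 8 tested stromal markers were higher in KD cells after 4 h of LPS (Col6a1, Pdgfrb and Col1a2), with summed signals of 2993 and 2640.4, against 1834 and 1512 in unstimulated KD cells, and their part was not tested.

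After 1 h of LPS, 0 of 43 genes were called in KD cells against unstimulated KD cells by limma (5.47% of all tested probe sets were). At an unadjusted p under 0.05 there were 3, for which no share of all tested probe sets is given. The median log2 change was -0.10, and it was negative under quantile normalization (-0.10) and median centring (-0.15). Without KD unstimulated array 2, 2 genes were called lower. The lowest values were those of Rps27 (-0.66), Rpl37a (-0.22) and Rpsa (-0.22). The highest were those of Rpl39 (0.63), Rpl37 (0.38) and Rpl39l (0.36), and all 6 had an adjusted p of 0.159 or more.

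In WT macrophages few genes of the family were called after LPS. After 4 h only Rpl37, read by a dim set, was called among the 43 genes, and it was lower. Of all tested probe sets 10.2% were lower and 6.95% higher (17.1% in either direction). It had signals of 81.5 and 85.0 in WT cells after 4 h of LPS, against 206 and 142 in unstimulated WT cells, with no overlap. The signal was 0.50-fold that of unstimulated WT cells (limma adjusted p = 0.0172), and the call was lost without either WT LPS 4 h array or WT unstimulated array 1. The median over the family was 0.08 as deposited (all tested probe sets -0.12). It was 0.21 after median centring (all tested probe sets 0.01) and -0.02 under quantile normalization (all tested probe sets -0.05), so its direction depended on the scaling. After median centring 11 genes were called higher, and no share of all tested probe sets is given for that scaling. Beside Rpl37, the lowest values belonged to Rpl39 (-1.25) and Rps27 (-0.46), and the highest to Rpl19 (0.23), Rps2 (0.19) and Rpl4 (0.18), none of which was called.

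After 1 h of LPS, 0 of 43 genes were called in WT cells against unstimulated WT cells by limma (6.12% of all tested probe sets were). At an unadjusted p under 0.05 there were 13, for which no share of all tested probe sets is given. The median log2 change was 0.09, and it was 0.00 under quantile normalization and 0.11 after median centring. The highest values were those of Rps2 (0.33), Rpl4 (0.29) and Rpl19 (0.29), and the lowest those of Rpl39 (-1.08), Rpl37 (-0.90) and Rpl39l (-0.37). The count was 5 without WT LPS 1 h array 1 and 4 without either unstimulated KD array. The comparisons at 1 h and 4 h share the unstimulated arrays of their strain.

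**Figure D3:**
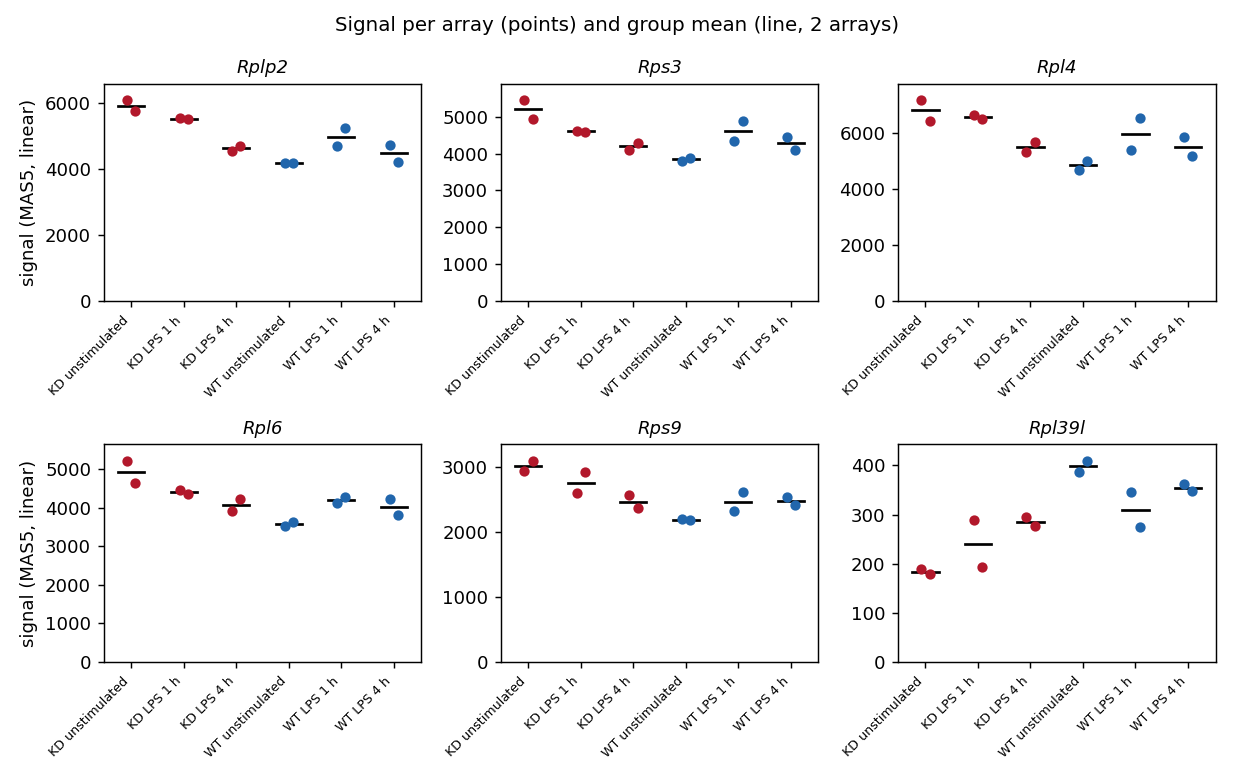
Signal per array (points) and mean of the 2 arrays of a group (line) of the 5 genes whose LPS response at 4 h differed between the strains, and of Rpl39l, on linear axes that start at 0, with KD in red and WT in blue. Rplp2, Rps3, Rpl4, Rpl6 and Rps9 are highest in unstimulated KD cells and lowest in unstimulated WT cells, and Rpl39l is lowest in unstimulated KD cells.

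The response to LPS was compared between the strains directly. At 4 h, 5 of 43 genes had a lower response in KD than in WT macrophages (Rpl4, Rps9, Rps3, Rplp2 and Rpl6), against 1.19% of all tested probe sets lower, 1.88% higher and 3.07% in either direction. Of the other probe sets with a mean signal of at least 1000, 5.25% had a lower and 4.4% a higher response in KD cells. The family's median difference of responses was -0.30 on the log2 scale (all tested probe sets 0.07), and it was -0.06 under quantile normalization and -0.38 after median centring. For Rpl4 the change with 4 h of LPS was -0.31 in KD cells and 0.18 in WT cells, a difference of -0.49 ± 0.13 (limma adjusted p = 0.0455). For Rplp2 it was -0.36 in KD cells and 0.10 in WT cells, a difference of -0.45 ± 0.11 (adjusted p = 0.031).

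Rps3, Rps9 and Rpl6 had differences of -0.46 ± 0.11, -0.47 ± 0.13 and -0.45 ± 0.11 (limma adjusted p = 0.0317, 0.0485 and 0.0407). The WT changes of the 5 genes, between 0.10 and 0.18, did not pass the test. In the same comparison 5 of the 8 tested stromal markers had a higher response in KD cells (Col6a1, Col3a1, Thbs2, Col1a2 and Col1a1), with a median difference of 1.11 over the list. The summed signals of all 9 listed markers were 2993 and 2640.4 in KD cells after 4 h of LPS against 1834 and 1512 in unstimulated KD cells, and 2627 and 2437.5 in WT cells after 4 h of LPS against 3429 and 3315 in unstimulated WT cells, and their part was not tested. All 5 ribosomal protein genes also stand among the genes that were higher in unstimulated KD cells, and this comparison contains the same 4 unstimulated arrays. The count was 0 without KD LPS 4 h array 1 or 2, WT LPS 4 h array 1 or WT unstimulated array 1, 1 without WT unstimulated array 2, 2 without KD unstimulated array 1 or KD LPS 1 h array 1 or 2, and 10 without KD unstimulated array 2. It was 0 under quantile normalization, without the filter on low signal and with a variance prior that does not depend on signal.

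At 1 h, 0 of 43 genes differed in their response between the strains by limma (0.326% of all tested probe sets did). At an unadjusted p under 0.05 there were 16, for which no share of all tested probe sets is given. The median difference was -0.19, and it was -0.09 under quantile normalization and -0.26 after median centring. Without KD unstimulated array 1, or without array 2, 1 gene was called. The lowest values were those of Rpl35 (-0.49), Rps2 (-0.47) and Rpl19 (-0.44), and the highest those of Rpl39 (1.71), Rpl37 (1.28) and Rpl39l (0.72).

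Under LPS no ribosomal protein gene passed the test between the strains. After 4 h of LPS, 0 of 43 genes were called between KD and WT macrophages by limma, against 5.37% of all tested probe sets. After 1 h of LPS, 0 were called, against 1.11% of all tested probe sets. At an unadjusted p under 0.05 there was 1 gene at 4 h and 15 at 1 h. No share of all tested probe sets at that threshold is given to set against them. The family's median was 0.05 at 4 h (-0.22 after median centring and 0.08 under quantile normalization) and 0.12 at 1 h (-0.15 and 0.06), so its direction between the strains depended on the scaling at both times. After median centring 14 genes were called lower in KD cells at 4 h and 2 at 1 h. All tested probe sets then had medians of -0.18 and -0.22, and no share of them called is given for that scaling. As deposited, 1 gene was called at 4 h without KD LPS 4 h array 2 or without WT LPS 4 h array 1, and 1 at 1 h without WT LPS 1 h array 1. The intervals had a median half-width of 0.19 on the log2 scale, and differences within it were not detectable with 2 arrays a group.

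For Rplp2 the signals after 4 h of LPS were 4553 and 4690.3 in KD cells, against 4737 and 4218 in WT cells, and the groups overlapped. Its change was 0.05 (95% interval -0.12 to 0.21). At 4 h the highest values were those of Rps27 (0.53), Rpl37 (0.44) and Rps18 (0.37), and the lowest those of Rpl39l (-0.31), Rps2 (-0.08) and Rpl27a (-0.07). Rps18 had signals of 4627 and 3659.7 in KD cells after 4 h of LPS, against 3062 and 3318 in WT cells, with no overlap and an adjusted p of 0.0739 by limma. At 1 h the highest were Rpl39 (1.36), Rpl37 (0.67) and Rps18 (0.39), and the lowest Rpl39l (-0.38), Rps27 (-0.34) and Rps2 (-0.03).

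**Figure D4:**
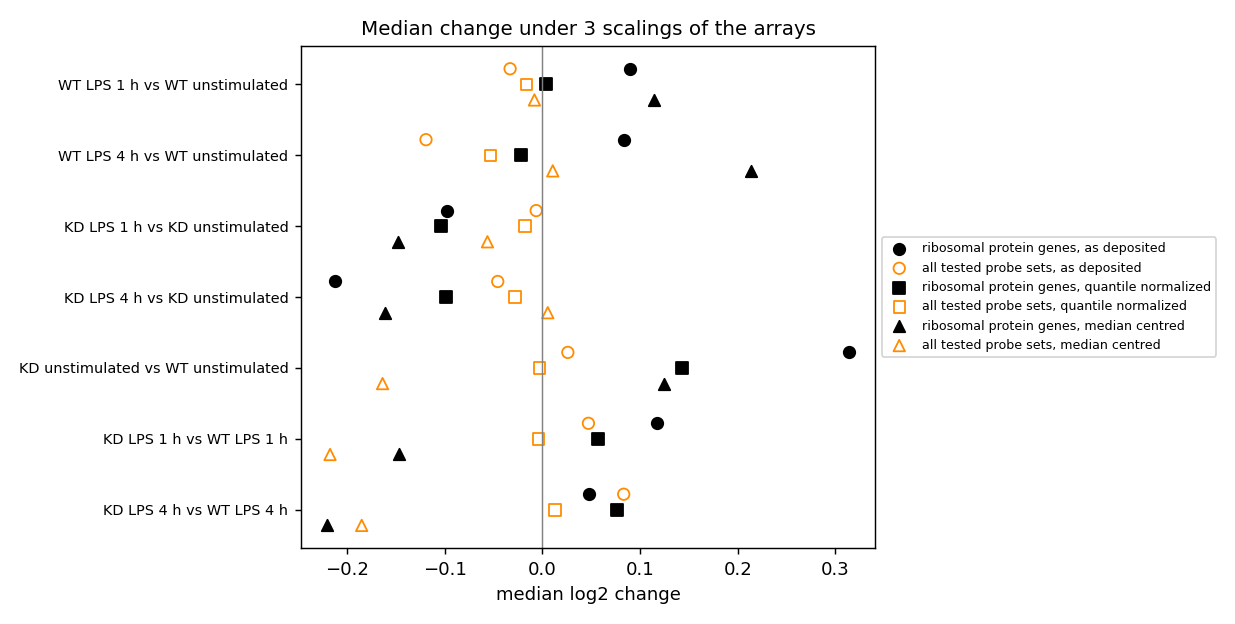
Median log2 change of the 43 ribosomal protein genes (black, filled) and of all tested probe sets (orange, open) in 7 comparisons, with the arrays as deposited (circles), quantile normalized (squares) or median centred (triangles). In unstimulated cells the KD minus WT median of the genes is positive under all 3 scalings (0.31, 0.14 and 0.12). After 4 h of LPS it is 0.05, 0.08 and -0.22, against 0.08, 0.01 and -0.18 over all tested probe sets.

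Each gene was set against the 3′ to 5′ control ratio of the arrays. Over the 12 arrays the median Pearson correlation of the family with the log2 ratio was 0.53 for Gapdh and 0.55 for Actb, against 0.03 and 0.04 over all tested probe sets. The correlation was above 0 in 35 and 39 of the 43 genes. By permutation 17 genes had an unadjusted p under 0.05 with each control, for which no share of all tested probe sets is given. After adjustment over all tested probe sets 0 of the 43 genes passed, as did 0.0% of all tested probe sets. The adjusted count therefore does not tell the family from the rest. The highest values with Gapdh were those of Rpl19 (r = 0.80, rho = 0.71, permutation p = 0.00199, adjusted p = 1.00), Rpsa (r = 0.77, rho = 0.44) and Rpl35 (r = 0.74, rho = 0.50). With Actb they were those of Rpl7 (r = 0.81, rho = 0.67, permutation p = 0.00202, adjusted p = 0.999), Rpsa (r = 0.80, rho = 0.47) and Rpl19 (r = 0.78, rho = 0.62). The lowest with Gapdh were Rpl39l (-0.39), Rps27 (-0.35) and Rpl14 (-0.30), and with Actb Rpl39l (-0.48), Rpl14 (-0.28) and Rps27 (-0.19).

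The 2 arrays farthest from the median ratio were KD unstimulated array 1 and WT unstimulated array 1. Without these 2 arrays the family's median correlation was -0.07 for Gapdh and 0.07 for Actb, and Rpl19 had 0.43 with Gapdh and 0.42 with Actb. The Gapdh ratios then run from 0.94 to 1.17 in place of 0.81 to 1.35. A narrower range alone can lower a correlation, so the fall does not show whether the relation holds. Between arrays of the same group, 0 genes had a slope on the mean ratio that passed the adjustment by limma, and the lowest adjusted p was 0.245, for Rpsa. With the mean ratio as a covariate, 10 genes were higher and 1 lower in unstimulated KD against unstimulated WT cells, where 22 and 1 were called without it. Rplp2 had a change of 0.46 and Rpl35 of 0.44 in that fit, both called. Calls were lost where the change was smaller than without the covariate, as in Rpl19 (0.29) and Rpsa (0.32), and where it was about the same, as in Rps19 (0.35 with and 0.36 without the covariate), Rpl27 (0.38 in both fits) and Rps27l (0.33 and 0.34). On the second unstimulated arrays the median deviation was 0.15 in KD cells and -0.11 in WT cells, at Gapdh ratios of 0.94 and 1.02.

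**Figure D5:**
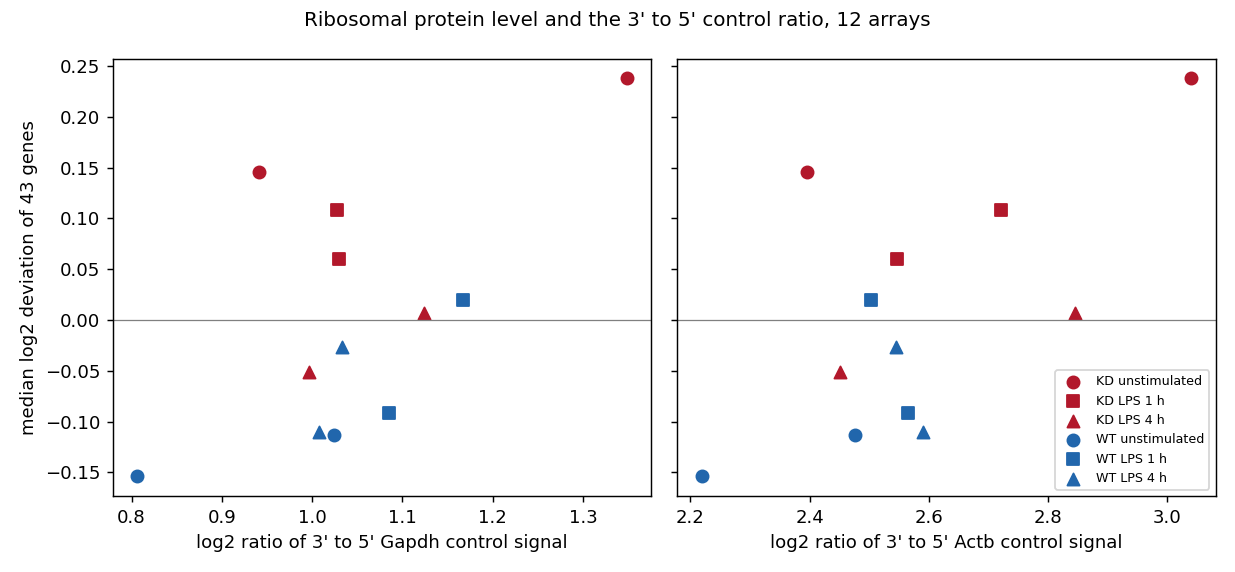
Median log2 deviation of the 43 ribosomal protein genes on each array against the 3′ to 5′ control ratio (log2), for Gapdh (left) and Actb (right), with KD in red, WT in blue and the condition as the shape. KD unstimulated array 1 lies at the upper right (0.24 at ratios of 1.35 and 3.04) and WT unstimulated array 1 at the lower left (-0.15 at 0.81 and 2.22), while the other 10 arrays have Gapdh ratios between 0.94 and 1.17.

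Genes of neighbouring functions were counted in the same fit. Of 4 tested ribosomal proteins that the name rule left out, Fau, which carries a ubiquitin-like part fused to a small-subunit protein, was higher in unstimulated KD than in unstimulated WT cells (0.36 ± 0.09, limma adjusted p = 0.0244). Of 18 translation factors and other mRNAs known for the oligopyrimidine tract, 4 were higher (Nap1l1, Eef1a1, Pabpc1 and Tpt1) and Eif4a2 was lower in that comparison, with a median log2 change of 0.15. There 2.37% of all tested probe sets were higher and 2.87% lower, and 13.7% and 7.67% of the other probe sets with a mean signal of at least 1000. The elongation factor Eef1a1 changed by 0.38 ± 0.10 (adjusted p = 0.0265) and the poly(A)-binding protein Pabpc1 by 0.36 ± 0.10 (adjusted p = 0.0442). In KD cells after 4 h of LPS, 0 of the 18 were called against unstimulated KD cells, with a median of -0.11.

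Of 37 genes for ribosome assembly and RNA polymerase I, 8 were higher and 1 lower in WT cells after 4 h of LPS than in unstimulated WT cells, with a median log2 change of 0.25, against 6.95% of all tested probe sets higher and 10.2% lower. Among them were Nop58, a box C/D small nucleolar ribonucleoprotein (0.94 ± 0.20, limma adjusted p = 0.00222), the nuclear export adaptor Nmd3 (0.80 ± 0.12) and the subunit anti-association factor Eif6 (0.80 ± 0.15), while the pseudouridine synthase Dkc1 was lower (-0.63 ± 0.14). In KD cells after 4 h of LPS, 3 were higher than in unstimulated KD cells (Nop58, Gar1 and Rrs1), with a median of 0.10, against 5.3% of all tested probe sets higher. After 1 h of LPS, 5 were higher in KD cells and 3 in WT cells, each against unstimulated cells of its strain, where 5.47% and 6.12% of all tested probe sets were called in either direction. The difference of responses at 4 h between the strains was called in 2 of the 37 genes, higher in Dkc1 and lower in Nmd3, with a median of -0.08. In that comparison 1.88% of all tested probe sets were higher and 1.19% lower. Between unstimulated KD and unstimulated WT cells, 0 of the 37 genes were higher and 2 lower (Dkc1 and Ddx21), against 2.37% and 2.87% of all tested probe sets. The median of the 37 genes there was -0.01.

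Of 18 regulators of translation, 3 were higher in WT cells after 4 h of LPS than in unstimulated WT cells (Larp1, Eif2ak2 and Eif4e), against 6.95% of all tested probe sets higher and 17.1% called in either direction. In KD cells after 4 h of LPS, 3 were higher than in unstimulated KD cells (Mxd1, Larp1 and Eif2ak2), against 5.3% and 10% of all tested probe sets. Larp1, the protein that binds oligopyrimidine tracts, changed by 0.61 ± 0.12 in KD cells (limma adjusted p = 0.00189) and by 0.85 ± 0.12 in WT cells (adjusted p = 3.23e-05). Between unstimulated KD and unstimulated WT cells 0 of the 18 were called.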

How the data were processed

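The members and gene lists were chosen with earlier results of these data known. The authors deposited linear intensities, 1 signal for each probe set and array, from MAS5, as the submitters' processing notes have it (version not given in the sources used here). Per the labels, RNA was extracted with RNeasy and labelled with the NuGEN Ovation protocol. Scaling was kept as deposited. Values were tested as log2(signal + 4.4), 4.4 being the 20th percentile of all values, so changes of dim sets are understated. The 27931 probe sets that exceeded the median of the array on 2 or more arrays entered 1 limma fit (version 3.58.1, R 4.3.3) with a mean for each of the 6 groups and a prior variance that follows signal, with Benjamini-Hochberg adjustment over all of them and a threshold of 0.05. The script was tested on simulated data. Correlations with control ratios used 100000 permutations (Python 3.11.15, scipy 1.17.1). Promoters came from RefSeq. There is no depth to report, and precision is limited by the number of arrays. Genes were named as called (the 10 with the largest change where more were called), by a role, or as the 3 highest and 3 lowest values. Alternatives changed scaling, filter, pseudocount, prior, arrays, covariate, replicate block and probe set. Replicate numbers did not pair the arrays: over 15 group pairs, deviations of arrays with the same number correlated between -0.07 and 0.04.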

Additional observations from a re-analysis of the deposited data

Results flagged for a closer look

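The LPS response at 4 h differed between KD and WT macrophages, by limma's test of the difference itself, in 5 ribosomal protein genes. The KD minus WT differences of response were -0.49 for Rpl4, -0.47 for Rps9, -0.46 for Rps3, -0.45 for Rplp2 and -0.45 for Rpl6 on the log2 scale. These 5 of 43 genes stand against 1.19% of all tested probe sets with a lower KD response, and 5.25% of other probe sets with a mean signal of at least 1000. In the same comparison 5 of 8 tested stromal markers had a higher KD response (median 1.11), and their part was not tested.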

How the results depend on the processing

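Counts of called genes, out of 43 unless probe sets changed, depended on several choices, and where no construction shows it the cause was not tested. The counts are given without the share of all tested probe sets called under each choice. With the order unstimulated KD against unstimulated WT cells (23 as reported), KD cells after 4 h of LPS against unstimulated (11), and the difference of responses at 4 h (5), quantile normalization gave 15, 3 and 0, median centring 5, 5 and 12, and a prior without a trend 0, 0 and 0. With only the arrays of the comparison the first gave 11 and the second 2, with the control ratio as covariate the first gave 11 and the third 1. Without the filter the second gave 3 and the third 0, where more probe sets were tested. The third gave 8 with a stricter filter and 3 with a pseudocount of 1. Median centring gave 4 in WT cells after 1 h of LPS, 12 in WT cells after 4 h (11 of them higher, against 1 lower as reported), 2 for KD against WT at 1 h, 14 for KD against WT at 4 h and 2 for the difference of responses at 1 h. For WT cells after 1 h, a stricter filter gave 5 and the covariate 1. KD against WT at 4 h gave 2 under quantile normalization and 1 with only its arrays. For WT cells after 4 h, a prior without a trend gave 0, as did keeping only members with a mean signal of at least 1000, an alternative chosen after seeing the data.

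With the replicate number as a block, WT cells after 1 h of LPS had 1 call and the difference of responses at 4 h had 2. It moved no other count by over 1.5 times. Leaving out 1 array at a time gave 3 to 25 calls for unstimulated KD against WT cells, 0 to 14 for KD cells after 4 h of LPS, 0 to 10 for the difference of responses at 4 h, 0 to 5 for WT cells after 1 h, 0 to 2 for KD cells after 1 h, and 0 to 1 each for WT cells after 4 h, KD against WT at 1 h, KD against WT at 4 h and the difference of responses at 1 h. With identifiers without a suffix preferred, WT cells after 1 h had 1 call and the difference of responses at 4 h had 3, and Rps9 and Rps3 turned sign on dimmer sets: Rps9 had -0.25 in unstimulated KD against WT cells, 0.37 in KD cells after 4 h and 0.36 in the difference of responses, and Rps3 had 0.046 in KD cells after 4 h and 0.42 in the difference of responses. Of the family medians under alternatives, 208 moved by less than about the standard error of a single gene's change. Another 8, all under quantile normalization or median centring, moved by more. That limit is not an error of the family median, which ran from 0.12 to 0.37 in unstimulated KD against WT cells. A group of 2 arrays limits all of these.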
